A study of Mus musculus with 8 samples.

Results

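The 10 genes described here, widely used as macrophage markers, were measured in mammary cell suspensions from parous and virgin mice. They are Csf1r, Adgre1, Cd68, Lyz2, Mrc1, Cd163, Msr1, Mertk, Timd4 and Itgam, and they were taken by name: a probe set belonged to a gene if that gene was the only one named for it in the array annotation. Each of the 10 genes had 1 such probe set, so the description covers 10 of the 34760 probe sets on the array and 10 of the 19937 genes that could be named. Another 2 probe sets name Itgam together with a ribosomal protein gene and were left out. RNA came from 8 pools of 5 mice, each pool hybridised to 1 Affymetrix Mouse Gene 1.0 ST array, with 4 parous and 4 age-matched virgin pools. The mice were of the inbred strain FVB/NHanHsd. Mice of the parous group were mated when 42 days old, went through pregnancy and lactated for 21 days, and 28 days of involution, the return of the gland to a non-milking state, are given in the sample labels, whereas the study's methods give a longer interval. Virgin mice had no pregnancy. The fourth glands were digested after the lymph nodes had been taken out. Adipocytes and red blood cells were removed, and fibroblasts were reduced by attachment to culture flasks, before single cells were made. Cells were not sorted, and no step was aimed at leukocytes. Whether macrophages were also lost by attachment to the flasks was not measured. The estrous stage of each pool was not given in the sources used here.

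Macrophages are tissue phagocytes that depend on the receptor for colony-stimulating factor 1. In the mammary gland they take part in duct growth, and during involution they clear dead epithelial cells and milk fat. Resident macrophages of the connective tissue and those that lie along the ducts differ in their surface genes: macrophages of the connective tissue carry scavenger and lectin receptors, and those along the ducts more MHC class II. In a suspension of mixed cells, fewer cells of a type and less RNA per cell cannot be told apart.

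All values are log2 intensities after the RMA procedure, in which each array is background-corrected and brought to the same distribution as the others, so a difference of 1 is a change of 2-fold. They can be compared between arrays for 1 gene, not between genes. A probe set was called when its fold change was over 1.5, its adjusted p under 0.05 and its mean linear value over 4. Median values of the 8 arrays lay between 6.29 and 6.43, and the arrays correlated with each other at r = 0.976 to 0.993 over all probe sets. The 10 macrophage probe sets were above the median of their array on all 8 arrays. So were all 7 luminal epithelial and all 7 basal epithelial markers, 11 of 12 pan-leukocyte genes and 8 of 8 endothelial genes, but only 1 of 6 adipocyte genes and 2 of 12 neutrophil genes. Suspensions labelled as mammary epithelial cells also carried RNA of leukocytes and vessel cells in both groups. Virgin replicates 2 and 4 stood apart from the rest in cell cycle genes: the mean of 15 such genes, with every gene set to an average of 0, was -0.43, -0.52, -0.88 and -0.66 on the parous arrays, against -0.27, 1.21, -0.23 and 1.78 on the virgin arrays. Parous replicate 1 and virgin replicate 3 were the highest of their groups in 8 B cell genes, at 0.99 and 1.80.

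To show the regulatory sequence of the genes that differed most between arrays, the 250 bases before the transcript start are printed for Mrc1, Itgam, Cd163 and Timd4, the 4 genes whose values on virgin replicates 2 and 4 were below those on all other arrays. Capitals mark the core of the site bound by PU.1, a transcription factor of myeloid cells, searched as GAGGAA on both strands, so that TTCCTC is the same core on the other strand.
Mrc1, the mannose receptor, chr2:14229164-14229413, plus strand: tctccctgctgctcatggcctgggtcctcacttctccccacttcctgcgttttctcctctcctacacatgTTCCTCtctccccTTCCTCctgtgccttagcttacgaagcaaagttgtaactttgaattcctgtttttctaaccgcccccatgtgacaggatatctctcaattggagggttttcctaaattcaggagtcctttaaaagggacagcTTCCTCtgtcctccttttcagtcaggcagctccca
Itgam, the integrin subunit CD11b, chr7:128062390-128062639, plus strand: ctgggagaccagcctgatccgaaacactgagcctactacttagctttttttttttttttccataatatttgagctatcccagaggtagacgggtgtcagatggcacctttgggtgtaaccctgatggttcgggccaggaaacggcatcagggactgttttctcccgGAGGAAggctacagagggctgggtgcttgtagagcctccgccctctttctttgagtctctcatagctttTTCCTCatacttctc
Cd163, the haemoglobin scavenger receptor, chr6:124304401-124304650, plus strand: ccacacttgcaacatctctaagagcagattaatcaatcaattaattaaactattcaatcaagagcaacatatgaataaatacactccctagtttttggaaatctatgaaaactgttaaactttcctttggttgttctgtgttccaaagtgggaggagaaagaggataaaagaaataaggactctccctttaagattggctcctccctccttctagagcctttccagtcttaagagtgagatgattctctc
Timd4, the phosphatidylserine receptor TIM-4, chr11:46810549-46810798, plus strand: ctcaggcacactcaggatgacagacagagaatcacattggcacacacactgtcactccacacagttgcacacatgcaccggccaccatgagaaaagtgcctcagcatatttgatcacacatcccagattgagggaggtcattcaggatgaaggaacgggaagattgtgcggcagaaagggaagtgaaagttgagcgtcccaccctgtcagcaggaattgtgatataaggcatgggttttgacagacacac
The sequences are those of RefSeq on GRCm38.p6, the genome of another strain than the one used here. In Cd163 and Timd4 the window runs past the annotated start of the gene, at 124304636 and 46810786. The last bases of these windows therefore lie within the gene. A window was found for 7 of the 10 genes, all but Csf1r, Adgre1 and Msr1. The PU.1 core was present in 3 of these 7 windows, 3 times in Mrc1, 2 times in Itgam and 1 time in Cd68, and in 23.2% of all 32851 promoter windows of that length. The AP-1 motif TGANTCA, searched on both strands, was present in 1 of the 7, Cd68, against 6.75% of all windows. Mrc1 with 3 cores and Cd163 with none were both lowest on the same 2 arrays, and a link of cores to array values was not tested. A match to these letters is a description of the sequence and not evidence of binding.

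The comparison asked whether the macrophage markers differed between parous and virgin glands. None of the 10 genes was called in either direction, while 0.239% of all probe sets were called as higher in parous samples and 0.158% as lower. All 10 fold changes lay above 0 with a median of 0.26, against a median of 0.0024 over all genes, of which 50.7% lay above 0. The 10 genes were measured on the same arrays and varied together, so they are not 10 independent results. No gene had groups without overlap, against 3.54% of all probe sets higher and 4.06% lower without overlap. Of the 10, only Cd68 had an unadjusted p under 0.05, as did 5.26% of all probe sets in the higher direction and 6.14% in the lower. Adjusted p-values of the 10 genes ran from 0.39 to 0.97. Because the p-values measure the spread between pools, and 4 against 4 arrays cannot give an exact permutation p below 0.029, the number of arrays limits the precision.

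Csf1r encodes the receptor for colony-stimulating factor 1, on which macrophage survival depends. Its log2 values were 10.16, 9.77, 10.39 and 10.55 on the parous arrays, against 10.15, 9.76, 10.17 and 9.80 on the virgin arrays. The groups overlapped, with parous replicate 2 as low as the lower virgin arrays. The difference was 0.24 (95% interval -0.17 to 0.65, limma adjusted p = 0.67).

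Adgre1 encodes F4/80, the surface protein by which mouse macrophages are usually recognised. It had 8.61, 8.52, 8.79 and 9.07 in parous samples, against 8.59, 8.52, 8.64 and 8.30 in virgin samples. Parous replicate 4 was the highest array and virgin replicate 4 the lowest, while the other 6 lay close together. A difference of 0.23 was estimated (95% interval -0.07 to 0.54, limma adjusted p = 0.57).

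Cd68, a glycoprotein of phagocyte lysosomes, came nearest to a separation of the groups. Parous arrays gave 10.64, 10.57, 10.91 and 10.98, and virgin arrays 10.61, 10.51, 10.50 and 10.35. Only parous replicate 2 fell below a virgin array, replicate 1. The difference was 0.28, or 1.22-fold (95% interval of the log2 difference 0.03 to 0.54), with an exact 2-sided permutation p of 0.057 and a limma adjusted p of 0.39.

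Lyz2 encodes lysozyme, made by macrophages, monocytes and neutrophils. Values of 11.67, 11.38, 11.87 and 11.76 were measured in parous samples, against 11.81, 11.50, 11.70 and 11.36 in virgin samples. The 2 groups covered almost the same range. The interval of the difference, -0.23 to 0.39 around 0.08, leaves out a 1.5-fold change in either direction (limma adjusted p = 0.90).

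Among the scavenger receptors, Mrc1 had the widest difference of the 10 genes. This lectin, also called CD206, takes up mannose-bearing glycoproteins. It had 9.99, 9.79, 10.47 and 10.50 on the parous arrays, against 9.90, 8.90, 10.17 and 8.93 on the virgin arrays. Virgin replicates 1 and 3 lay within the parous range, and replicates 2 and 4 below all parous arrays. The difference was 0.72, or 1.64-fold (95% interval 0.993-fold to 2.71-fold, limma adjusted p = 0.45), smaller than the virgin range of 1.27.

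Cd163, which takes up haemoglobin bound to haptoglobin, followed the same course. It had 7.48, 7.29, 7.93 and 7.95 in parous samples, against 7.50, 6.43, 7.65 and 6.47 in virgin samples. Again virgin replicates 1 and 3 could not be set apart from parous arrays. The mean difference was 0.65 (95% interval -0.06 to 1.36, limma adjusted p = 0.48), against a virgin range of 1.22.

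Msr1, the class A scavenger receptor for modified lipoproteins, did not share this course. Its values were 7.45, 7.27, 7.43 and 7.57 on parous arrays and 7.52, 7.38, 7.41 and 7.32 on virgin arrays. They overlapped throughout. The difference of 0.02 had an interval of -0.18 to 0.21, narrower than a 1.5-fold change (limma adjusted p = 0.97).

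Receptors for dying cells differed among themselves. Timd4, or TIM-4, binds phosphatidylserine on apoptotic cells and marks long-lived resident macrophages in several mouse tissues. It had 8.69, 8.09, 8.69 and 8.84 in parous samples, against 8.37, 7.22, 8.77 and 7.43 in virgin samples. The virgin range, 1.55, was the widest of the 10 genes in either group and covered most of the parous values. The difference was 0.63 (95% interval -0.16 to 1.42, limma adjusted p = 0.55).

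Mertk encodes a receptor kinase that recognises apoptotic cells through the bridging proteins Gas6 and protein S. It had 8.93, 9.02, 8.93 and 8.88 on the parous arrays, against 8.86, 9.05, 8.61 and 8.45 on the virgin arrays. Parous arrays agreed within 0.145, and virgin replicate 2 was the highest of all 8, unlike in Mrc1, Cd163 and Timd4. A difference of 0.20 was estimated (95% interval -0.10 to 0.49, limma adjusted p = 0.63).

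Itgam encodes CD11b, which pairs with Itgb2 to form complement receptor 3 on macrophages, monocytes and neutrophils. It had 8.13, 7.97, 8.28 and 8.50 in parous samples, against 8.08, 7.56, 8.18 and 7.40 in virgin samples. Virgin replicates 2 and 4 were once more the lowest arrays. The difference was 0.42, or 1.33-fold (95% interval of the log2 difference -0.03 to 0.86, limma adjusted p = 0.47).

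**Figure D1:**
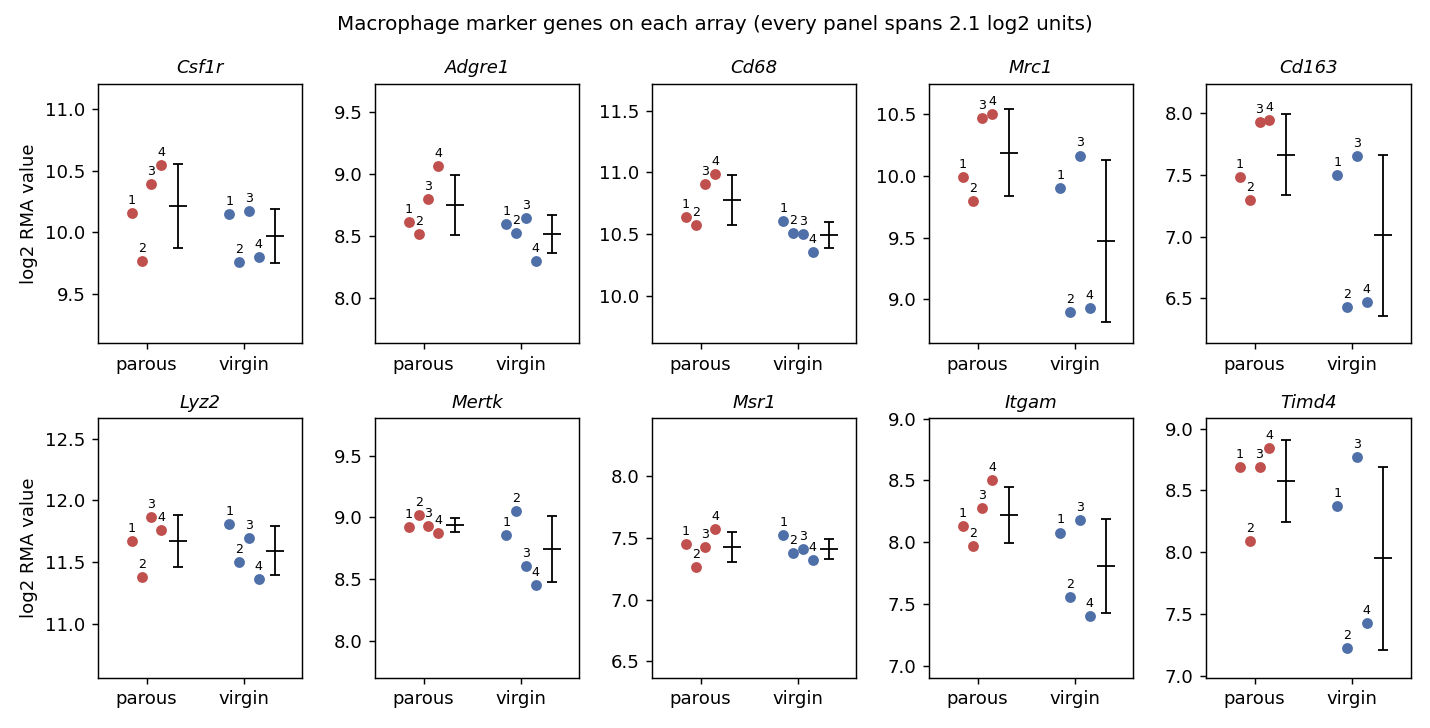
Log2 RMA values of the 10 macrophage marker genes on each array (vertical axis, every panel spanning the same number of log2 units), parous arrays left and virgin arrays right, with replicate numbers above the points and bars for the mean ± SD of 4 arrays. Virgin replicates 2 and 4 lie below the other arrays in Mrc1, Cd163, Itgam and Timd4, and the groups overlap in all 10 panels.

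The 4 genes Mrc1, Cd163, Itgam and Timd4 were lowest on virgin replicates 2 and 4, a placing seen in 13.1% of all genes. These are the virgin arrays with the high cell cycle genes, whose part in the result was not tested. Without these 2 arrays, the difference was 0.16 in Mrc1, 0.09 in Cd163, 0.09 in Itgam and 0.01 in Timd4. Cd68 and Mertk moved less, to 0.22 and 0.20, while Csf1r went to 0.05 and Adgre1 to 0.13. Lyz2 and Msr1 were then below 0, at -0.09 and -0.04, so that 8 of 10 genes lay above 0, and the median of the 10 was 0.09. No macrophage marker was called without the 2 arrays either, where 0.138% of all probe sets were called as higher and 0.15% as lower. The count above 0 was also 8 of 10 without virgin replicate 4 alone, and 9 of 10 without parous replicate 4.

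**Figure D2:**
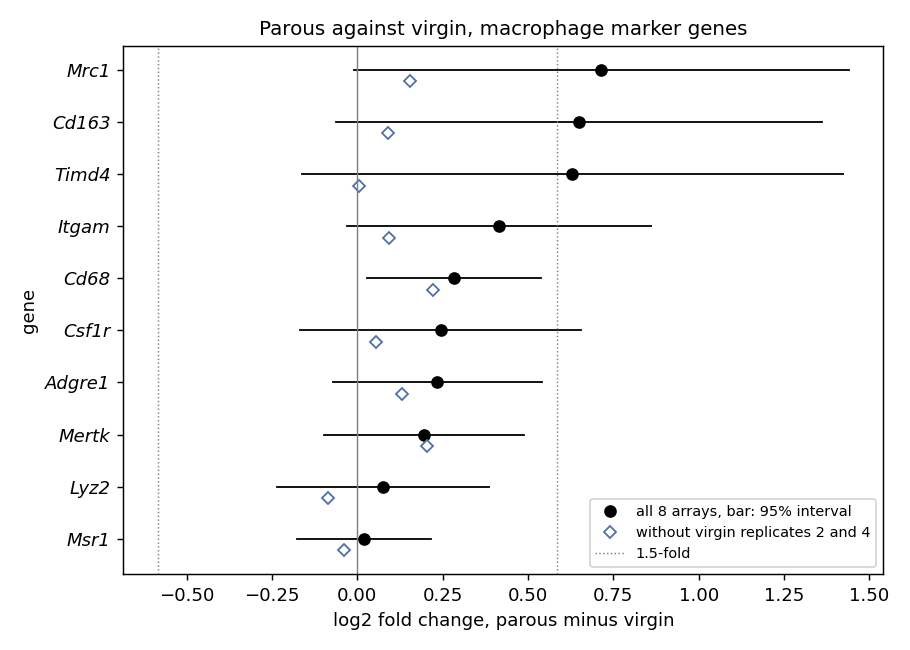
Log2 fold change of parous against virgin samples (horizontal axis) for the 10 macrophage marker genes. Filled points with bars give all 8 arrays with the 95% interval, open diamonds the value without virgin replicates 2 and 4, and dotted lines a 1.5-fold change. The diamonds of Mrc1, Cd163 and Timd4 lie at 0.16, 0.09 and 0.01, far left of their filled points at 0.72, 0.65 and 0.63.

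Over the 8 arrays, the mean of the 10 markers after centring each gene was 0.11, -0.10, 0.30 and 0.39 on the parous arrays, against 0.07, -0.39, 0.11 and -0.49 on the virgin arrays. Of 9960 other genes with at least median spread, the course of Ccl6 was most like this mean (Pearson r = 0.989), followed by Folr2 (0.988), Fcgr2b (0.986), Fcgr3 (0.986) and C5ar1 (0.981). Ccl6 is a chemokine of myeloid cells, Folr2 a folate receptor of resident macrophages, Fcgr2b and Fcgr3 are receptors for immunoglobulin G, and C5ar1 binds the complement fragment C5a. Each r is a description over 8 arrays that share their cell mixtures. None of the 5 was called, and their differences ran from 0.26 in C5ar1 to 0.61 in Ccl6, and from 0.02 in C5ar1 to 0.11 in Fcgr3 without virgin replicates 2 and 4.

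Genes of resident macrophages of the connective tissue followed the markers. Of 14 such genes, 13 lay above 0 with a median of 0.67, 0 were called and 4 had an unadjusted p under 0.05, all of them higher. On 11 of the 14, virgin replicates 2 and 4 were the lowest arrays. Mean values were 0.22, -0.07, 0.51 and 0.59 on the parous arrays, against 0.18, -0.70, 0.20 and -0.93 on the virgin arrays. Without virgin replicates 2 and 4 the median was 0.08. Cbr2, carbonyl reductase 2, was the only gene of this list without overlap: 12.05, 12.10, 12.18 and 12.11 in parous samples, against 11.72, 11.25, 11.89 and 11.13 in virgin samples, a difference of 0.61 (limma adjusted p = 0.21). Pf4, the chemokine platelet factor 4, differed by 0.62 (limma adjusted p = 0.39) with overlap. Without the 2 arrays these differences were 0.31 and 0.23.

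Genes of duct-associated and MHC class II macrophages went the other way. Of 9 analysed, 8 lay below 0 with a median of -0.28, 0 were called and 3 had an unadjusted p under 0.05, all lower. Their mean was -0.15, -0.29, -0.25 and -0.09 on the parous arrays, against 0.13, 0.16, 0.28 and 0.21 on the virgin arrays, and the groups did not overlap. This separation rested on Mmp12: the mean of the other 8 genes was -0.04, -0.27, -0.19 and 0.01 on the parous arrays, against 0.06, 0.01, 0.31 and 0.12 on the virgin arrays, so that parous replicate 4 and virgin replicate 2 had about the same value. Of these 8 genes 7 lay below 0, with a median of -0.26. Over all 9 genes the median was -0.37 without virgin replicates 2 and 4, and -0.18 without virgin replicate 3. Class II genes are also expressed by B cells and dendritic cells, and their part in the result was not tested.

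Mmp12, macrophage metalloelastase, had 7.10, 7.77, 7.40 and 7.31 in parous samples, against 8.85, 9.53, 8.15 and 9.08 in virgin samples. Every parous array was below every virgin array. The difference was -1.51 (95% interval -2.14 to -0.88), which did not pass over all probe sets (limma adjusted p = 0.080), but did without virgin replicate 3, with a difference of -1.76 and a limma adjusted p of 0.013. H2-Ab1, a chain of an MHC class II molecule, differed by -0.40 with overlap (limma adjusted p = 0.35).

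**Figure D3:**
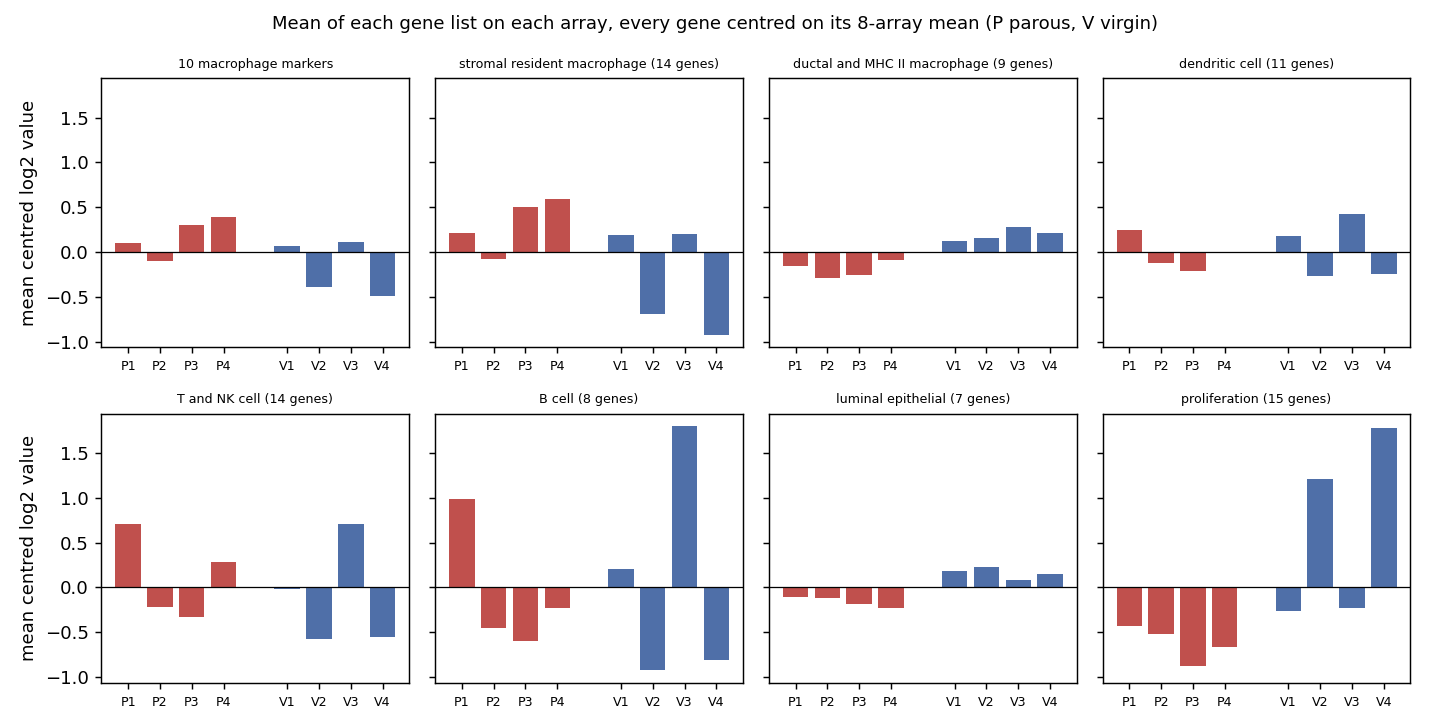
Mean of each gene list on each array after centring every gene on its mean over the 8 arrays (vertical axis, log2 units), parous arrays P1 to P4 left and virgin arrays V1 to V4 right. The 10 markers and the stromal resident list are lowest on V2 and V4, the ductal and MHC II list is below 0 on all parous and above 0 on all virgin arrays (with Mmp12 left out, P4 and V2 both lie at 0.01), and the proliferation list of cell cycle genes is high on V2 and V4.

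Genes that act with the markers were read by role. Of 9 ligand and transcription factor genes of the macrophage lineage, all lay above 0 and 0 were called, with a median of 0.31, or 0.12 without virgin replicates 2 and 4. Csf1, the main ligand of Csf1r, differed by 0.11 (limma adjusted p = 0.77). Il34, its other ligand, had 7.61, 7.66, 7.68 and 7.47 in parous samples, against 7.13, 7.33, 7.32 and 7.40 in virgin samples. These did not overlap, with a difference of 0.31 (limma adjusted p = 0.22). Tfec, a transcription factor of the macrophage lineage, also had no overlap and differed by 0.52 (limma adjusted p = 0.20), or 0.38 without the same 2 arrays.

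Among 14 genes for the uptake of apoptotic cells, 0 were called as higher and 1 as lower, with 9 above 0 and 5 below. Their median was 0.16, against 0.09 without virgin replicates 2 and 4 and 0.08 without virgin replicate 4 alone. Gas6 and Mfge8, bridging proteins that link dying cells to phagocytes, differed by 0.63 and 0.29 without overlap, and Pros1, protein S, by 0.28 with overlap (limma adjusted p = 0.29, 0.23 and 0.41). Without virgin replicates 2 and 4, the lowest arrays in all 3, they differed by 0.27, 0.18 and 0.11. Which cells of the mixed suspension gave the RNA of these 3 genes was not tested. Itgav, an integrin chain that binds Mfge8, was lower without overlap, by -0.22 (limma adjusted p = 0.30). Axl, of the same list, was higher without overlap, by 0.32 (limma adjusted p = 0.29), with virgin replicates 2 and 4 again lowest. Without overlap were 3 genes higher and 2 lower of the 14, against 3.54% and 4.06% of all probe sets. The gene called was Havcr2, or TIM-3, of the same gene family as Timd4 and present on macrophages, dendritic cells and T cells. It had 7.02, 6.71, 6.17 and 6.18 in parous samples, against 7.67, 7.84, 7.71 and 7.87 in virgin samples. All virgin arrays were above all parous arrays, and virgin values lay close together. Parous replicates 3 and 4 were below the median of their array, and the other 6 arrays above it. Havcr2 fell by 1.25 on the log2 scale in parous samples (95% interval -1.69 to -0.82, limma adjusted p = 0.037). This call was lost on leaving out any array other than parous replicate 1, with differences of -1.32 to -1.14 and limma adjusted p-values of 0.066 (virgin replicate 3), 0.084 (virgin replicate 4), 0.093 (virgin replicate 1), 0.097 (parous replicate 2), 0.11 (parous replicate 4), 0.12 (parous replicate 3) and 0.14 (virgin replicate 2), and also without virgin replicates 2 and 4 (0.24) and with a replicate block (0.12).

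The scavenger receptors outside the 10 markers had 7 of 12 genes above 0 and 0 called, with 5 at an unadjusted p under 0.05. The list had a median of 0.18, against 0.0066 without virgin replicates 2 and 4 and 0.015 to 0.28 on leaving out 1 array each, the lowest without virgin replicate 4. Scara5, a ferritin receptor, differed by 1.10 and Scara3 by 0.73, both without overlap (limma adjusted p = 0.25 and 0.17). Virgin replicates 2 and 4 were the lowest arrays for both, and without them the differences were 0.48 and 0.41. Marco, a class A receptor like Msr1, had a difference of -0.16 (limma adjusted p = 0.74), or -0.38 without those 2 arrays. Every Marco value was below the median of its array. In 20 Fc receptor, complement and other phagocyte genes the median was 0.14, against 0.0094 without virgin replicates 2 and 4 and 0.07 to 0.21 on leaving out 1 array each, and 0 were called. Cd14, a co-receptor for bacterial lipopolysaccharide, had 11.68, 11.74, 11.75 and 11.75 in parous samples, against 11.52, 11.35, 11.37 and 11.29 in virgin samples, a difference of 0.35. Aif1, the calcium-binding protein IBA1, had 6.02, 5.88, 5.93 and 6.09 in parous samples, against 6.33, 6.53, 6.35 and 6.30 in virgin samples, a difference of -0.40. Cd14 and Aif1 were without overlap in opposite directions, and neither passed (limma adjusted p = 0.12 and 0.11). Cd14 was above the median of its array on all 8 arrays, and Aif1 on only 3. Mpeg1, of the same list, was also lower without overlap, by -0.39 (limma adjusted p = 0.25). Without overlap were 1 gene higher and 2 lower of the 20, against 3.54% and 4.06% of all probe sets. Which cells of the suspension gave the RNA of these genes was not tested.

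The integrins that share a family with Itgam did not move as 1 group. Itgb2, the partner chain of Itgam, differed by 0.30 and Itgal by 0.42, both with overlap, and 0 of 8 genes of the list were called (limma adjusted p = 0.67 and 0.73). Without virgin replicates 2 and 4 they were at -0.01 and -0.13, and the median of the list was -0.05, against 0.23 over all arrays and 0.09 without virgin replicate 4 alone. Itgax, or CD11c, found on dendritic cells and duct-associated macrophages, had 6.52, 6.56, 6.25 and 6.42 in parous samples, against 7.01, 7.60, 6.93 and 7.68 in virgin samples. Its groups did not overlap, with virgin replicates 2 and 4 highest rather than lowest, and the difference was -0.87 (limma adjusted p = 0.12), or -0.53 without the 2 arrays. Fgb, the fibrinogen beta chain and a ligand of the integrin that holds Itgam, differed by -2.15 without overlap (limma adjusted p = 0.12).

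Of the dendritic cell genes, 6 of 11 lay above 0 and 1 was called. Their median was 0.02, -0.24 without virgin replicates 2 and 4, and from -0.17 to 0.12 on leaving out 1 array each. Cd207, langerin, a lectin of Langerhans cells and some dendritic cells, had 4.72, 4.67, 4.51 and 4.85 in parous samples, against 5.89, 5.71, 5.95 and 6.15 in virgin samples. Every value was below the median of its array, and the groups were well apart. Cd207 fell by 1.24 on the log2 scale in parous samples (95% interval -1.50 to -0.98, limma adjusted p = 0.0046). It was called on leaving out each array in turn, with limma adjusted p-values of 0.0083 to 0.030, and at 0.021 without virgin replicates 2 and 4. Cd209a, of the same list, was higher without overlap, by 0.86 (limma adjusted p = 0.21), with virgin replicates 2 and 4 lowest. Its values were above the median of their array on all 8 arrays.

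**Figure D4:**
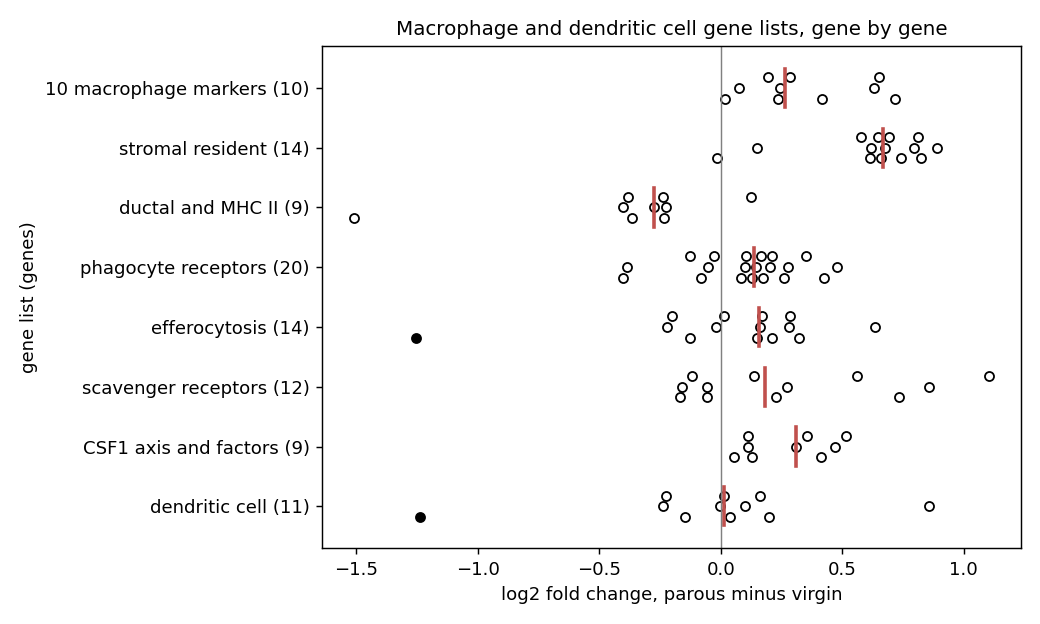
Log2 fold change of parous against virgin samples (horizontal axis) for every gene of the 10 markers and of 7 lists of macrophage and dendritic cell genes, with 1 circle a gene and a bar at the median. Filled circles are the 2 called genes, Havcr2 at -1.25 and Cd207 at -1.24. The 10 markers and the stromal resident list (median 0.67) lie mostly right of 0, the ductal and MHC II list (median -0.28) mostly left.

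Markers of other cell types varied between the arrays too, and 0 genes were called in any of these lists. The 12 pan-leukocyte genes had a mean from -0.28 to 0.47 on the parous arrays and from -0.48 to 0.69 on the virgin arrays. Their median difference was 0.06 over all 8 arrays, -0.34 without virgin replicates 2 and 4, and from -0.07 to 0.32 on leaving out 1 array each, so it had no stable sign. Of the 5 blood cell lists, 4 changed sign without the 2 virgin arrays. Monocyte genes had a median of 0.15 (7 analysed), against -0.09 without the 2 virgin arrays, neutrophil genes 0.11 (12 analysed), against -0.11, and mast cell genes 0.13 (7 analysed), against -0.12. Virgin replicate 1 was the highest array in neutrophil genes, with a mean of 0.61, against -0.48 to -0.05 on the other virgin arrays. T and NK cell genes had a median of 0.17 (14 analysed), which was -0.35 without the 2 virgin arrays and -0.006 without parous replicate 1. B cell genes had a median of -0.33 (8 analysed), which was -0.95 without the 2 virgin arrays, -0.59 without parous replicate 1 and 0.27 without virgin replicate 3.

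Of the cells that make up the gland, luminal epithelial genes had a mean from -0.23 to -0.11 on the parous arrays and from 0.08 to 0.23 on the virgin arrays, without overlap. Their median difference was -0.22 (7 analysed), and -0.13 without virgin replicates 2 and 4. Basal epithelial genes had a median of -0.33 (7 analysed), which was -0.25 without these 2 arrays and -0.19 without virgin replicate 3. Fibroblast genes had a median of 0.36 (8 analysed), against 0.21 without the 2 arrays. Endothelial genes had 0.23 (8 analysed), against -0.04 without the 2 arrays and 0.05 without virgin replicate 4 alone, and adipocyte genes 0.05 (6 analysed), against -0.02. Cell cycle genes had a median of -1.33 (15 analysed, 13 lower at an unadjusted p under 0.05), against -0.43 without the 2 arrays. The share of each cell type in the suspensions was not measured, and the part of these differences in the values of the macrophage markers was not tested.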

How the data were processed

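Gene expression in total mammary cell suspensions was measured on 8 arrays, 1 per pool of 5 mice, 4 parous and 4 virgin. According to the methods, the authors amplified total RNA with the Ambion WT Expression kit and summarized the arrays by RMA with the affy package. The deposited values are log2 intensities per probe set, background-corrected and quantile normalized between arrays.

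Of 34760 probe sets, 21640 named 1 gene in the array annotation, 21553 of them with a current symbol through the gene identifier, 1321 named several and 11799 none here. Genes with several probe sets were represented by the one with the highest mean. The groups were compared in R 4.3.3 with limma 3.58.1 (lmFit and eBayes, no covariate, 2-sided), and Benjamini-Hochberg adjustment covered all 34760 probe sets. Calls needed a mean log2 value over 2, a linear fold change over 1.5 and an adjusted p under 0.05. Single genes were also compared by exact 2-sided permutation. The fit was tested on simulated data.

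The 10 markers and the 20 gene lists were chosen with earlier results of these data known, and lists were described without a test. Genes picked by rule were the 10 markers, and in each list up to 4 called genes or otherwise up to 2 with the smallest p. The 5 genes most like the mean of the markers were added. Most genes picked from the lists of other cell types are not printed. Genes named beside those picked by rule (Csf1, Gas6, Mfge8, Pros1, Itgav, Axl, Marco, Mpeg1, Itgb2, Itgal, Cd209a) were chosen after their values were seen. Alternatives were leaving out each array, a block on the replicate number, quantile normalization applied again, centring on the array median, eBayes with trend and robust estimation, array weights, the methods' t-test, restriction to probe sets naming 1 gene, a filter on dim probe sets, no fold change criterion and an unadjusted p. Leaving out virgin replicates 2 and 4, or parous replicate 1 and virgin replicate 3, or Mmp12 from its list, was chosen after seeing the data.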

Additional observations from a re-analysis of the deposited data

Results flagged for a closer look

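In groups of 4 arrays, a value was listed when the gap to its nearest neighbour took up most of the range of its group, by Dixon's criterion at 95%. Groups came from the 10 markers, the gene list means and the genes picked by rule, not from every gene of the lists. Of 148 groups examined, 2 were listed, and chance alone lists about 1 in 20. None of the 10 macrophage markers was among them. Fgb, the fibrinogen beta chain, had 6.51 on parous replicate 4, against 8.03 to 8.28 on the other parous arrays. Lep, the adipocyte hormone leptin, had 4.63 on parous replicate 4, against 5.00 to 5.02 on the other parous arrays.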

How the results depend on the processing

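No macrophage marker was called in either direction under any of the 20 alternatives tried for each, and 8 of the 10 kept a difference above 0 in all of them. The exceptions were Lyz2 and Msr1. Leaving out 1 array each gave -0.0023 to 0.17 in Lyz2, with virgin replicate 4 the one that turned the sign, and -0.028 to 0.072 in Msr1, where parous replicate 4 and virgin replicate 4 did. Array weights gave -0.016 in Lyz2 and -0.034 in Msr1, and leaving out virgin replicates 2 and 4 gave -0.086 and -0.039. The median of the 10 was 0.21 to 0.37 on leaving out 1 array each and 0.09 without virgin replicates 2 and 4. With the replicate number as a block the median stayed at 0.26, Mrc1, Cd163 and Timd4 had unadjusted p under 0.05 in place of Cd68, as did 6.22% of all probe sets in the higher direction (limma adjusted p = 0.35, 0.38 and 0.39), and over all probe sets 25 were called as higher and 24 as lower, against 83 and 55 without it. Arrays of the same number deviated from their group means with correlations of 0.12, 0.18, -0.06 and 0.31, and not every array correlated best with its own number. The study describes independent experiments that each held both groups, which would pair the pools, but the sources used here do not tie the replicate numbers to those experiments, so the fit without the block was kept. The methods' t-test called 6 and 5 probe sets after Benjamini-Hochberg adjustment. Leaving out virgin replicates 2 and 4 left 48 higher and 52 lower, and leaving out parous replicate 1 and virgin replicate 3 left 74 and 22, with 4 of the 10 markers, and 5.62% of all probe sets, higher at an unadjusted p under 0.05. Mmp12 was also called without dim probe sets and over probe sets naming 1 gene (limma adjusted p = 0.041 and 0.045), whereas with the methods' t-test Cd207 and Havcr2 lost their calls (adjusted p = 0.077 and 0.16). The interval of Mrc1 reached 0 with a virgin SD of 0.66, against 0.35 on the parous arrays.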
